A study of Mus musculus with 9 samples.

Results

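The interferon-induced genes described here are Oas1b, Irgm1, Irf1, Rsad2, Ifit1, Ifit3, Isg15, Usp18 and Ifitm3, 9 of the genes that vertebrate cells switch on when interferon reaches them. They were selected on earlier results from these same arrays, in which the METH and MPTP differences from control were known, and then picked by gene symbol with no intensity filter. The group differences of these genes are therefore given as descriptions with no test. Of the 9 genes, 8 had at least 1 probe set (a group of short oligonucleotides summarised into 1 signal) annotated to that gene alone, 10 probe sets in all out of 22626 tested, which covered 12393 named genes. Rsad2 had 3 and the other measured members 1 each. The 1 probe set for Isg15 is shared with another gene, so Isg15 has no value here.

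RNA from the striatum of both hemispheres was taken from 9 males of strain C57BL/6J, 56 days old, and hybridised to single-colour Affymetrix mouse arrays, 1 array per mouse. The groups were 3 mice injected with methamphetamine (METH), 3 injected with MPTP and 3 controls injected with saline. METH releases dopamine from nerve terminals and harms them at high dose, and MPTP becomes, once metabolised in brain, a poison of dopamine neurons. Both serve as models of the dopamine loss of Parkinson's disease, produced by a drug rather than by the slow course of the disease, and no doses or times after injection are given in the sources used here. All mice were of 1 strain and sex, the labels name no altered allele, and the striatum holds the terminals of dopamine neurons rather than their cell bodies.

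Interferons are secreted proteins that bind receptors on nearly every cell and act through the kinases JAK1, JAK2 and TYK2. Type I interferon acts on its target genes mainly through a DNA motif named the interferon-stimulated response element (ISRE), whereas interferon gamma acts mainly through one named the gamma-activated sequence (GAS). In the brain, microglia, astrocytes and endothelial cells are known to respond to interferon, and several of these genes have low but measurable levels without infection.

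The promoters of 4 members are shown as examples that hold letter matches to the motifs named above. Ifit3, Isg15 and Ifitm3 hold such matches too. Irgm1 and Rsad2 separated both toxin groups from control on at least 1 probe set, Irf1 separated MPTP mice only, and the groups of Ifit1 overlapped. Each promoter is the 150 bases before the annotated gene start, 5′ to 3′ on the gene's own strand, from the RefSeq promoter table of build GRCm38.p6. Capitals mark ISRE-like matches (GAAA, any 2 bases, GAAA, or TTTC, any 2 bases, TTTC on the other strand) and GAS-like matches (TTC, any 3 bases, GAA, which reads the same on both strands).
Irgm1, chr11:48871421-48871570, minus strand: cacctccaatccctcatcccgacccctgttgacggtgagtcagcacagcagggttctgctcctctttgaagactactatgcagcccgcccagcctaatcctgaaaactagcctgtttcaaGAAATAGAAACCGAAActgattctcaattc
Irf1, chr11:53769864-53770013, plus strand: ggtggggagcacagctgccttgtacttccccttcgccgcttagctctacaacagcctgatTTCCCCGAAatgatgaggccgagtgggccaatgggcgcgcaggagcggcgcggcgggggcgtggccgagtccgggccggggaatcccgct
Rsad2, chr12:26456453-26456602, minus strand: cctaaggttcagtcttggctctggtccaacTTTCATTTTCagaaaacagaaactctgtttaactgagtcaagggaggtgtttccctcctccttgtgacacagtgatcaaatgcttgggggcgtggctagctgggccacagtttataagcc
Ifit1, chr19:34640739-34640888, plus strand: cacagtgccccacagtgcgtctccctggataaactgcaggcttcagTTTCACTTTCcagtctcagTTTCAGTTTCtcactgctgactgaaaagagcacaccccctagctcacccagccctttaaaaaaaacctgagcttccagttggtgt

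Irgm1 has 2 overlapping ISRE-like matches that begin 30 and 24 bases before its start, Ifit1 has 2 that begin 104 and 85 bases before, and Rsad2 has 1 that begins 120 bases before. Irf1 has 1 GAS-like match, 90 bases before its start, and no ISRE-like match, and a second Irf1 window in the table held neither. Over windows running from 250 bases before to 50 after a start, 6 of the 7 members in the table (all but Irf1) held an ISRE-like match, against 3.99% of the 27025 genes in it. A GAS-like match was held by 2 of these 7 members, Irf1 and Ifitm3, against 9.55% of genes. Among 73 other genes of the interferon pathway in the table, 31 (42.5%) held an ISRE-like match and 23 (31.5%) a GAS-like one. A match describes letters in the window and does not show that a factor binds there.

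**Figure D1:**
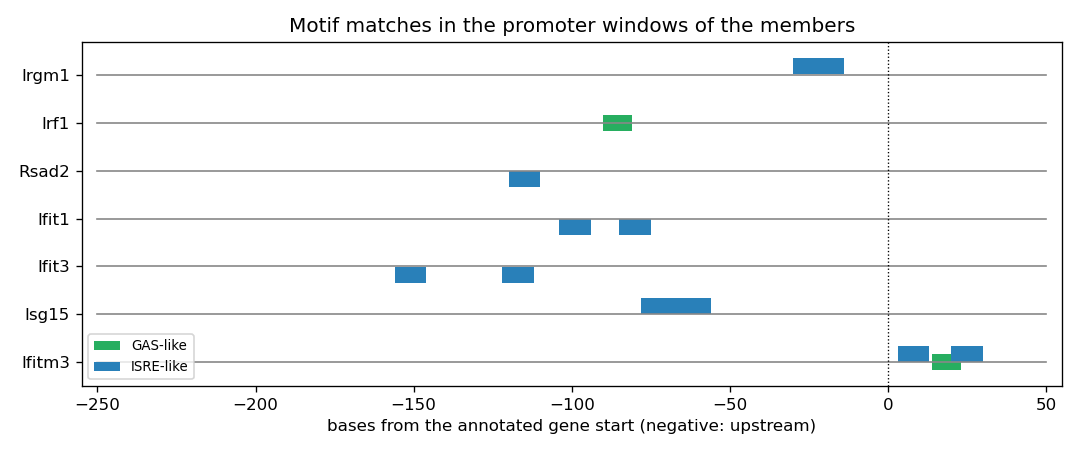
Motif matches in the promoter windows of the 7 members found in the promoter table, by distance in bases from the annotated gene start (the dotted line). Blue bars are ISRE-like matches, above the line when on the gene's strand and below it when on the other strand, and green bars are GAS-like matches; the Irf1 window shown holds only the GAS-like match, 90 bases upstream.

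Oas1b, Irgm1 and the brightest Rsad2 probe set separated both toxin groups from control, Irf1 separated MPTP mice from control, and the groups of the other member probe sets overlapped. The lowest METH array exceeded the highest control for 3 of the 10 member probe sets, those of Oas1b and Irgm1 and 1 of Rsad2, and this held for 7.20% of all 22626 probe sets. The lowest MPTP array exceeded the highest control for 4 of the 10, the same 3 and Irf1, against 6.18% of all. No member probe set had all its METH or all its MPTP arrays below control (0 of 10 for each), as 5.30% and 4.49% of all probe sets did. The members were chosen with these contrasts known, so nothing is read from the shares. The median log2 difference over the 10 probe sets was 0.24 for METH and 0.25 for MPTP, beside 0.04 (METH) and 0.02 (MPTP) over all probe sets, and 9 and 8 of the 10 had a positive difference, beside 56.0% and 53.3% of all. The METH and MPTP differences share the 3 control arrays and so are not independent of each other. With striatal tissue in bulk, a change in the number of cells of a type and a change in RNA per cell cannot be told apart.

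**Figure D2:**
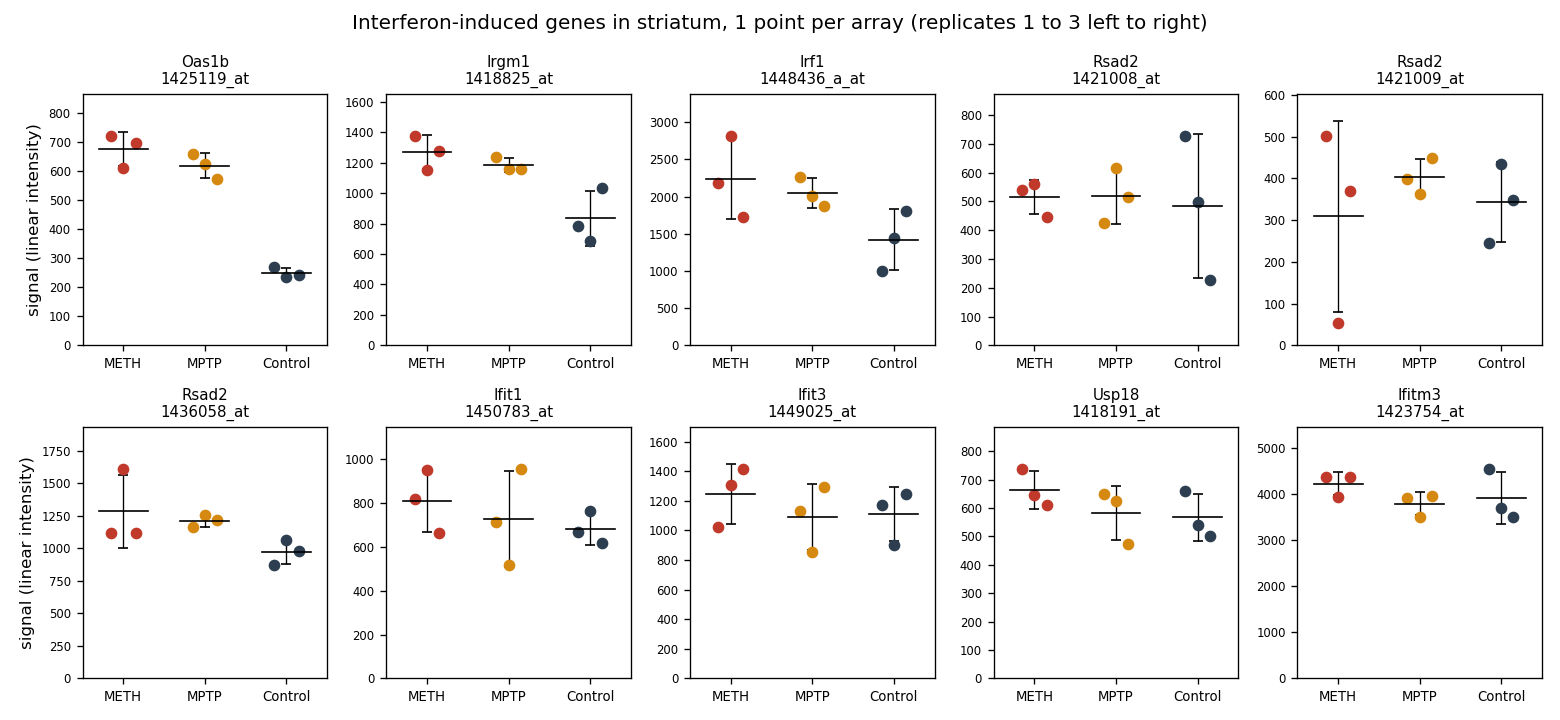
Signal (linear intensity) of each member probe set on every array, with METH, MPTP and control from left to right, points for the 3 mice of a group, a line for their mean and bars for the SD. The METH and MPTP points of Oas1b (575 to 722) and Irgm1 (1153 to 1376) all lie above the control points (at most 270 for Oas1b and 1037 for Irgm1), whereas the groups of Ifit1, Ifit3, Usp18 and Ifitm3 overlap.

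Oas1b belongs to the oligoadenylate synthetase family, enzymes that sense double-stranded RNA and switch on RNase L. The RefSeq gene table of the C57BL/6J assembly GRCm38.p6 lists Oas1b as a transcribed pseudogene, and this strain is known to carry an allele with a premature stop. Its signal was 722, 610.1 and 696 in METH mice, 660.5, 624 and 575 in MPTP mice, and 270, 235 and 243 in control mice. Both toxin groups stood well clear of the controls, whose highest value was under the lowest toxin value of 575 (MPTP 3). Oas1b averaged 676 ± 58.7 in METH and 249.1 ± 18.3 in control mice (SD, n = 3 each), a log2 difference of 1.44 ± 0.22 (SE) or 2.71-fold. In MPTP mice it averaged 619.9 ± 42.7, a log2 difference of 1.32 ± 0.22 or 2.49-fold over control. Leaving out any 1 array kept the log2 difference between 1.39 and 1.51 for METH and between 1.27 and 1.37 for MPTP. The mean log2 signal of this probe set ranked at percentile 30.4 among those tested, and adding 50 to every value before taking log2 lowered the differences to 1.28 and 1.16. No detection calls were used here.

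Irgm1 encodes an interferon-inducible GTPase that regulates autophagy and the clearance of intracellular pathogens. Its signal was 1376, 1153 and 1279 in METH mice, 1236, 1157 and 1160.2 in MPTP mice, and 782, 684 and 1037 in control mice. All 6 toxin arrays were above the highest control, control 3, which stood nearer to the toxin mice than to control 2. The log2 difference was 0.62 ± 0.18 for METH (1.54-fold) and 0.53 ± 0.18 for MPTP (1.44-fold). Without control 3 these were 0.79 and 0.70 (METH and MPTP), and without control 2 they were 0.49 and 0.40.

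Irf1 encodes a transcription factor that interferon gamma induces and that binds interferon response elements in other genes. Its signal was 2184, 2817 and 1725 in METH mice, 2269, 2012 and 1874 in MPTP mice, and 995, 1446 and 1812 in control mice. METH 3 lay below control 3, so METH and control overlapped, while all 3 MPTP arrays lay above control 3, MPTP 3 by the least. The log2 difference was 0.68 ± 0.22 for METH and 0.57 ± 0.22 for MPTP. Leaving out 1 array moved it between 0.44 (without control 1) and 0.87 (without control 3) for METH, and between 0.34 and 0.77 for MPTP, at the same 2 arrays.

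Rsad2 encodes viperin, an antiviral enzyme that makes a chain-terminating nucleotide. Its 3 probe sets differed from one another. The brightest (percentile 50.1) gave 1119.6, 1611 and 1120.4 in METH mice, 1165, 1258 and 1218 in MPTP mice, and 874, 1063 and 976 in control mice. Here all toxin arrays were above all controls, with log2 differences of 0.39 ± 0.17 for METH and 0.33 ± 0.17 for MPTP, and METH 2 was the highest array. The METH difference was 0.21 without METH 2.

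The other Rsad2 probe sets were dim and did not separate the groups. The one at percentile 31.1 gave 541, 559 and 447 in METH mice, 425, 616 and 515 in MPTP mice, and 728, 498 and 225 in control mice. The control values bracketed all the others, and the differences of 0.24 for both toxins became -0.23 for both without control 3. The dimmest (percentile 23.6) gave 502, 54.5 and 370 in METH mice, 398, 362 and 448 in MPTP mice, and 245, 435.5 and 349 in control mice. A single low array, METH 2, stood far under the rest, and the METH difference was -0.63 ± 0.67 with it and 0.37 without it, beside 0.26 ± 0.67 for MPTP. The same METH 2 array was the highest of all 9 on the brightest Rsad2 probe set.

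Ifit1 and Ifit3 encode proteins of the IFIT family, of which IFIT1 binds viral RNA that lacks a host cap and IFIT3 is its partner (known best from human). Ifit1 gave 817, 952 and 666 in METH mice, 712, 517 and 957 in MPTP mice, and 668, 763 and 616 in control mice. Ifit3 gave 1023, 1308 and 1416 in METH mice, 1133, 851 and 1293 in MPTP mice, and 1175, 904 and 1249 in control mice. The groups overlapped for both genes. The log2 differences were 0.24 ± 0.25 (METH) and 0.06 ± 0.25 (MPTP) for Ifit1, and 0.17 ± 0.21 (METH) and -0.03 ± 0.21 (MPTP) for Ifit3. MPTP 2 was the lowest of the 9 arrays for both genes.

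Ifitm3 encodes a membrane protein that blocks the entry of viruses into cells. Its signal was 4369.7, 3934 and 4365 in METH mice, 3913, 3497 and 3957 in MPTP mice, and 4544, 3698 and 3492 in control mice. Control 1 was the highest array, and the groups overlapped. The log2 difference was 0.12 ± 0.11 for METH and -0.04 ± 0.11 for MPTP. This was the brightest member probe set relative to all others (79.7th percentile) and the one with the smallest SE.

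Usp18 encodes the protease that removes ISG15 from its target proteins and also damps type I interferon receptor signalling. Its signal was 738, 645 and 609 in METH mice, 649.6, 626 and 472 in MPTP mice, and 660.1, 541 and 500 in control mice. The groups overlapped, with MPTP 3 the lowest array and METH 1 the highest. The log2 difference was 0.23 ± 0.22 for METH and 0.04 ± 0.22 for MPTP. Isg15, the ubiquitin-like protein that Usp18 removes, could not be set beside it for want of a probe set of its own.

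**Figure D3:**
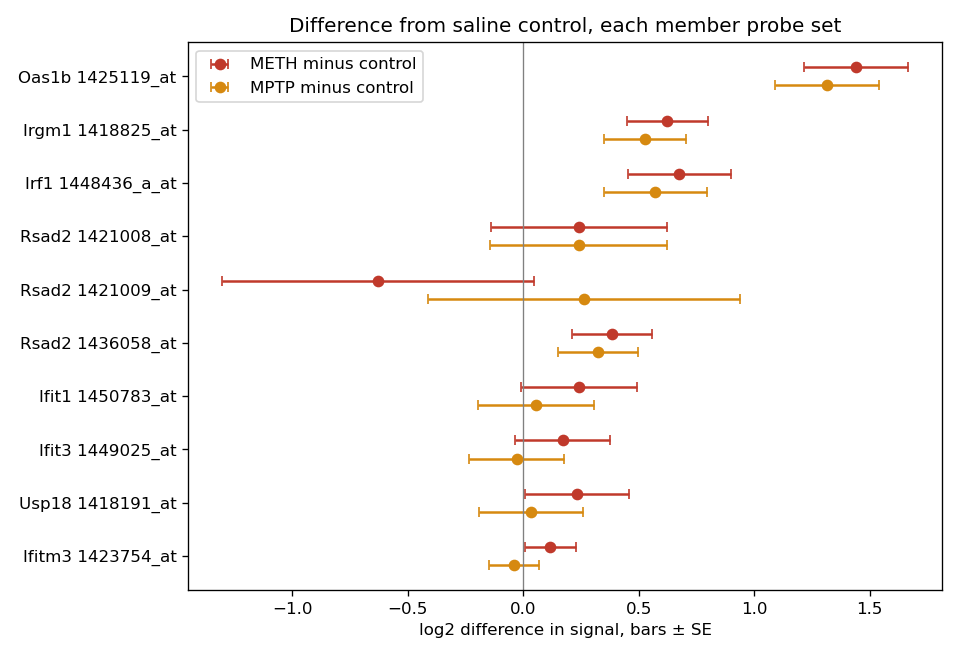
Log2 difference in signal from control for each member probe set, with METH in red above MPTP in amber and bars for ± 1 SE of the fit over all 9 arrays. Oas1b lies at 1.44 and 1.32, Irgm1 and Irf1 between 0.53 and 0.68, and the dimmest Rsad2 probe set at -0.63 for METH with the widest bar.

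Set against each other, METH and MPTP mice overlapped for every member. The METH minus MPTP log2 difference was 0.12 ± 0.22 for Oas1b, 0.10 ± 0.18 for Irgm1 and 0.10 ± 0.22 for Irf1. Over the 10 probe sets it ran from -0.89 (the dimmest Rsad2 probe set) to 0.20 (Ifit3), with a median of 0.11. Of the 10 probe sets, 0 had all METH arrays above all MPTP arrays and 0 had all below, where 4.47% and 3.42% of all probe sets did. The SE of each difference leaves room for unequal effects of the toxins, which 3 mice a group do not settle.

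Seen by array, all 6 toxin mice had most members above the control mean. Of the 10 probe sets, 9 were above the mean log2 value of the controls in METH 1, METH 2, METH 3, MPTP 1 and MPTP 3, and 7 were in MPTP 2, where 49.9% (METH 3) to 58.7% (METH 2) of all probe sets were. The median deviation over the 10 probe sets was lowest among toxin mice in METH 3 (0.19) and highest in METH 2 (0.43), beside 0 and 0.08 over all probe sets on those arrays. The controls set the mean that was subtracted, so their own deviations are no comparison.

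The genes whose profile over the 9 arrays came nearest to that of Oas1b were ranked by the root mean square difference between log2 profiles centred on their means, over 7960 other genes. Gfap, the intermediate filament gene of astrocytes, came first at 0.17 log2 units, with log2 differences of 1.13 for METH and 1.14 for MPTP. Oas1b was chosen with its toxin differences known, and the distance takes in those differences. The nearness of Gfap is therefore no separate result. The next were Lce1b (0.41), Irgm1 (0.41), Rras2 (0.41) and Ccdc166 (0.42). For Irgm1 the nearest profiles were those of Ccdc166 (0.11), Irf5 (0.12), Prm1 (0.13), Ccnd3 (0.14) and Ly86 (0.15). Irf5 encodes another interferon regulatory factor, and Ly86 a partner of a Toll-like receptor relative on myeloid cells. None of these 5 genes was on the interferon pathway lists used here, and only Ly86 was on a marker list, that of microglia. Irf5 had 1596, 1683 and 1532 in METH mice, 1688, 1452 and 1439.9 in MPTP mice, and 1191, 892 and 1391 in control mice. It was picked for its likeness to Irgm1 over these same arrays, so a high control 3 in both genes is no separate result.

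**Figure D4:**
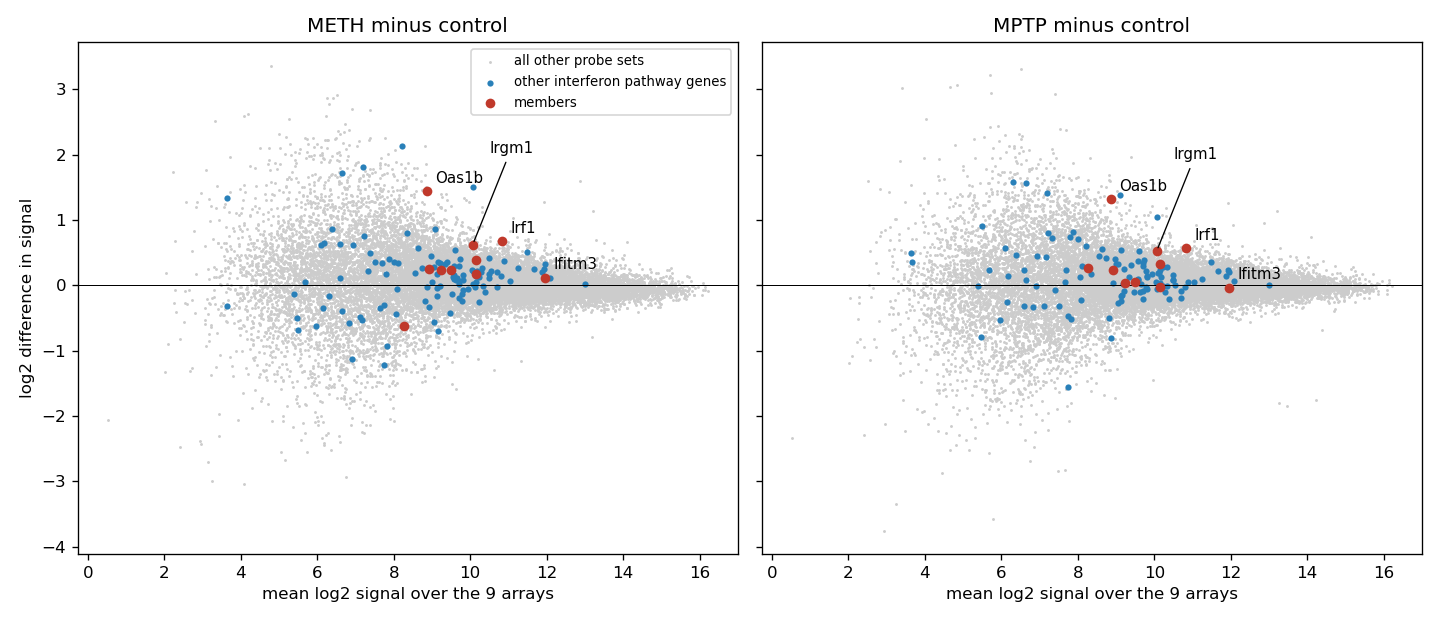
Log2 difference from control against the mean log2 signal over the 9 arrays for all 22626 probe sets (grey), the 111 probe sets of other interferon pathway genes (blue) and the 10 member probe sets (red), METH on the left and MPTP on the right. The grey cloud widens toward low signal, and Oas1b lies in the dim part at a mean log2 signal of 8.88, while Ifitm3 at 11.95 lies near 0.

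The rest of the interferon pathway, taken from lists arranged by role, was measured by 111 probe sets of 74 genes. None passed limma's test at an adjusted p under 0.05 in METH against control, MPTP against control or METH against MPTP (0 of 111 each), where 0.00884%, 0.00884% and 0% of all probe sets did. The 2 probe sets called in each toxin contrast were both of Gfap. At an unadjusted p under 0.05 there were 11 of the 111 for METH, all higher, against 7.68% of all probe sets. For MPTP there were 4 of the 111, all higher, against 5.09%. Of all probe sets under that p, 1094 of 1737 were higher for METH and 709 of 1151 for MPTP. For METH against MPTP there were 6 of the 111, 4 higher and 2 lower, against 3.10% of all. The median log2 difference of the 111 was 0.14 for METH and 0.13 for MPTP, against 0.04 (METH) and 0.02 (MPTP) for all probe sets. A share of 65.8% had a positive METH difference and 67.6% a positive MPTP difference, against 56.0% and 53.3% of all probe sets.

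The ligand genes were dim, and none of their 9 probe sets passed. The smallest p among them was that of Ifna5, an interferon alpha gene, with 108.4, 116 and 289 in METH mice, 163, 106.5 and 149 in MPTP mice, and 31.8, 55 and 57.8 in control mice (adjusted p = 0.545 for METH and 0.933 for MPTP). All toxin arrays were above all controls here, at the 11.3th percentile of mean signal, and interferon alpha genes are so alike in sequence that this probe set may read several of them. Ifnb1, the interferon beta gene, had log2 differences of 0.57 for METH and 0.55 for MPTP, and Ifng, the interferon gamma gene, 0.17 and 0.74, none of them past the test.

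The receptor and kinase genes showed small differences. Their 12 probe sets had medians of 0.11 for METH and 0.12 for MPTP, and Ifngr1, a chain of the interferon gamma receptor, had the widest difference for METH, 0.51 ± 0.21 (adjusted p = 0.608). The transcription factor genes Irf2, Irf3, Irf7, Irf8, Irf9 and Stat2 had medians of 0.08 for METH and 0.05 for MPTP over 11 probe sets. Those of the inhibitors, among them Socs1 and Socs3, which block the JAK kinases, were 0.14 and 0.04 over 13 probe sets. The nucleic acid sensor genes, such as Ifih1 and Tlr3, which detect viral RNA, had 0.05 and 0.32 over 11 probe sets.

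The 7 other OAS family genes measured had log2 differences from -0.34 to 0.13 for METH, and from -0.21 to 1.58 for MPTP. Oas1a, which encodes an active synthetase, gave 1454, 1157 and 1029 in METH mice, 969, 1508 and 1600.2 in MPTP mice, and 1095, 1191 and 1014 in control mice. Its groups overlapped, with log2 differences of 0.13 ± 0.21 (METH) and 0.27 ± 0.21 (MPTP) and adjusted p-values of 0.904 and 0.947. Oas1c, at the 9.1th percentile, had 37.9, 43.7 and 78.4 in METH mice, 173, 123 and 234 in MPTP mice, and 45.6, 125.5 and 32.5 in control mice. MPTP and control mice overlapped, and the adjusted p was 0.933 for MPTP against control and 1 for METH against MPTP. No test of Oas1b against its relatives was made.

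The relatives of Irgm1, the interferon-inducible GTPases, had medians of 0.33 for METH and 0.23 for MPTP over 13 probe sets of 10 genes. Gbp3, a guanylate-binding protein gene, had the smallest p for MPTP among all 111 probe sets. It gave 629, 527 and 613 in METH mice, 590.2, 1073 and 968 in MPTP mice, and 383, 278 and 322 in control mice. All 6 toxin arrays were above all controls, with log2 differences of 0.86 ± 0.27 for METH (adjusted p = 0.563) and 1.39 ± 0.27 for MPTP (adjusted p = 0.711), neither past the test. Igtp and Irgm2, the genes closest to Irgm1 in kind, had METH differences of 0.03 ± 0.22 and -0.30 ± 0.76, and MPTP differences of -0.09 ± 0.22 and -1.56 ± 0.76. Irgm2, at percentile 18.9, gave 72.7, 262.9 and 72 in MPTP mice, all below the controls at 497.3, 269.2 and 263.3. Its METH arrays, 437.4, 73.5 and 592.4, overlapped the controls. The MPTP difference of Irgm2 did not pass limma's test (adjusted p = 0.933).

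Among the genes of ISG15 conjugation, Uba7, which encodes the enzyme that activates ISG15, had the smallest p for METH among the 111 probe sets. That probe set gave 474, 853 and 817 in METH mice, 428.5, 218 and 147 in MPTP mice, and 152, 169 and 152 in control mice. METH mice were clear of the controls, with a log2 difference of 2.13 ± 0.41 (adjusted p = 0.318), whereas MPTP mice overlapped them at 0.60 ± 0.41. The METH minus MPTP difference was 1.53 ± 0.41 (adjusted p = 1). The brightest Uba7 probe set gave 1359, 1600.2 and 2246 in METH mice, 865, 1550.4 and 1423 in MPTP mice, and 719, 241 and 1242 in control mice (adjusted p = 0.571 for METH and 0.933 for MPTP). The third, at percentile 4.8, had log2 differences of -0.68 ± 0.82 and 0.90 ± 0.82 for METH and MPTP. The probe sets of Uba7 thus do not give 1 answer.

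Among the other effectors, 28 probe sets of 21 genes had medians of 0.21 for METH and 0.08 for MPTP. Ifit2, of the same family as Ifit1 and Ifit3, had -0.44 ± 0.51 (METH) and 0.13 ± 0.51 (MPTP). Ifitm1 and Ifitm2, relatives of Ifitm3, had 0.11 ± 0.21 and -0.26 ± 0.15 for METH, and 0.02 ± 0.21 and -0.01 ± 0.15 for MPTP. Cxcl10, a chemokine that interferon gamma induces strongly, had 175, 456 and 185 in METH mice, 333, 54.1 and 365 in MPTP mice, and 146, 46.9 and 50.5 in control mice (adjusted p = 0.608 for METH and 0.933 for MPTP). Its lowest MPTP array, MPTP 2, was level with the lower controls.

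Other measures differed between the groups beside these genes. Microglia markers had positive differences for 15 of 16 genes in METH and 15 of 16 in MPTP, beside 56.0% and 53.3% of all probe sets. Their medians were 0.21 and 0.19. The summed signals were 72697 to 75083 in METH, 70378 to 73034 in MPTP and 59427 to 67067 in control mice, so toxin and control sums did not overlap. Single markers varied. On the brightest Csf1r and Cx3cr1 probe sets toxin and control arrays overlapped, whereas a dimmer Csf1r probe set separated both toxin groups and Aif1 separated METH only. Astrocyte markers had positive differences for 8 (METH) and 7 (MPTP) of 10 genes, with medians of 0.06 and 0.17, and summed to 95865 to 98719 in METH, 93729 to 103340 in MPTP and 88081 to 92639 in control mice. Without Gfap these sums were 84151 to 86643 in METH, 82379 to 89744 in MPTP and 82678 to 86203 in control mice, and overlapped. Markers of lymphocytes, neutrophils and monocytes had positive differences for 7 (METH) and 8 (MPTP) of 15 genes. Their sums were 9911 to 13064 in METH, 10578 to 13152 in MPTP and 9494 to 11858 in control mice, and 10 of the 15 lay under the 40th percentile. Among them the T cell marker Cd3e was dim (percentile 20.9), with 175 to 240 in METH, 149 to 208 in MPTP and 301 to 788 in control mice. Ptprc, of the same list, went the other way, with means of 1024 in METH, 1102 in MPTP and 752 in control mice, and its groups overlapped. Endothelial and pericyte markers summed to 31283 to 33046 in METH, 30131 to 33771 in MPTP and 32909 to 35201 in control mice. Choroid plexus markers ranged from 11214 to 54515 in METH, 5943 to 36913 in MPTP and 15054 to 69795 in control mice. Neuron markers had positive differences for 2 (METH) and 3 (MPTP) of 8 genes, striatal spiny neuron markers for 2 and 1 of 7, oligodendrocyte markers for 4 and 7 of 7, and red blood cell markers for 3 and 3 of 5. As a check of the labelled tissue, the spiny neuron marker Ppp1r1b stood at percentile 99.2, with 31100.1 to 34053 in METH, 28824 to 31092 in MPTP and 27711 to 35822 in control mice. The part of these markers in the interferon-induced differences was not tested.

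The median signal of an array was 1127 to 1233 in METH, 1127.5 to 1178 in MPTP and 1110.5 to 1126.8 in control mice, so every control median lay below every toxin median. Spearman correlations between arrays were 0.970 to 0.985, each array had a trimmed mean of 2501, and the signal ratio of 3′ to 5′ Gapdh control probe sets was 0.73 to 0.84 in METH, 0.79 to 0.84 in MPTP and 0.83 to 0.86 in control mice. METH 2, which gave the discordant Rsad2 values, had the highest median signal (1233) and the lowest Gapdh ratio (0.73). On the other 3′ to 5′ ratios it was neither the lowest nor the highest array, at 1.08 for actin, 2.94 for transferrin receptor and 1.72 for pyruvate carboxylase. Whether array quality bears on the members was not tested.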

How the data were processed

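The deposited table holds 1 linear intensity for each of 22690 probe sets on each of 9 single-colour arrays. The authors scaled these intensity values to a common trimmed mean before they deposited them, as the values show, and the submitters' processing notes name RMA without a version, though the deposited values lack its log form. The sources used here do not give the summary of probes into probe sets. The submitters' text names a larger array than the one the values match. No detection calls were used, and the number of arrays limits the precision.

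Values were taken to log2 with no further normalization, pseudocount or filter. After 64 array controls were left out, 22626 probe sets were fitted in limma 3.58.1 (R 4.3.3) with 1 mean per group, all 9 arrays and eBayes with a mean-variance trend (6 residual degrees of freedom). Tests were two-sided, with Benjamini-Hochberg adjustment over all 22626 and a threshold of 0.05. The median SD within groups was 0.81 log2 units in the dimmest 10% of probe sets and 0.11 in the brightest 10%. Errors of signals are SDs over 3 arrays and those of log2 differences are SEs from the fit. The submitters describe the replicates as biological. An exact permutation test of 3 arrays against 3 cannot go below p = 0.1, so none was run. Of the probe sets, 20380 had 1 gene symbol, 691 several and 1555 none; 20351 of the 20380 were found by gene ID in the RefSeq table of GRCm38.p6, and 0 symbols changed.

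The members, gene lists, tests and alternatives were chosen with earlier results of these data known. The named genes are every member, the other pathway genes with the 3 smallest p-values in a comparison (none passed), the 5 nearest profiles to Irgm1 and Oas1b among probe sets at or above the 40th percentile, and markers beside a result. Oas1a, Igtp, Irgm2, Ifit2, Ifitm1, Ifitm2, Ifnb1, Ifng, Ifngr1 and Cxcl10 were added as relatives of members or for their roles, after values were seen, as was the astrocyte sum without Gfap. The fit was checked on simulated data with known changes.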

Additional observations from a re-analysis of the deposited data

Results flagged for a closer look

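Irf8, which encodes a transcription factor of microglia and other myeloid cells, lay on opposite sides of control in the toxin groups on 1 of its 2 probe sets. It gave 791, 732 and 728 in METH mice, all below control, and 1105, 943 and 1076 in MPTP mice, all above control, with 932, 938 and 804.5 in control mice. This probe set came from a search of the 10 member and 111 other pathway probe sets for such a pattern. No other probe set searched showed it, and the share of all probe sets with it was not counted. The METH minus MPTP log2 difference was -0.47 ± 0.16, which did not pass limma's test (adjusted p = 1). The METH and MPTP differences from control themselves, -0.25 and 0.22, share the control arrays, and neither passed (adjusted p = 0.742 and 0.947). The other Irf8 probe set overlapped between all groups. Outlying arrays were not sought within groups, which hold 3 arrays each.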

How the results depend on the processing

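No other interferon pathway gene was called in any comparison under any alternative run (0 throughout). The calls over all probe sets, 2 in each toxin contrast, were 1 (METH) and 0 (MPTP) without the mean-variance trend, 1 and 1 with 1 probe set per gene above the 40th percentile and also no trend, and 1 for METH after median centring. Leaving out 1 array gave 0 to 4 calls for METH (0 without control 1, control 2, METH 1 or METH 3, and 4 without control 3 or MPTP 2) and 0 to 3 for MPTP (0 without control 1, control 2 or MPTP 1, and 3 without control 3, METH 2, MPTP 2 or MPTP 3). The median member difference for METH was 0.385 with a 40th percentile filter or 1 probe set per gene, each of which keeps 5 member probe sets and drops Oas1b, 0.131 under quantile normalization, 0.129 under cyclic loess, 0.177 after median centring and 0.317 under array weights. For MPTP it was 0.325 with either filter, 0.176 with quantile normalization and 0.19 with cyclic loess. Leaving out 1 array gave 0.217 to 0.359 for METH and 0.179 to 0.366 for MPTP. The cause of these shifts was not tested, apart from the filters, which remove probe sets. Positive MPTP differences numbered 6 of 10 with quantile normalization or cyclic loess, 7 after median centring and 9 with array weights, and 6 to 10 without 1 array; Ifit1, Ifit3, Usp18 and Ifitm3 changed sign for MPTP under at least 1 alternative. Of the dimmer Rsad2 probe sets, the one at percentile 31.1 changed sign for both toxins without control 3, and the dimmest for METH without METH 2. Oas1b, Irgm1, Irf1 and the brightest Rsad2 probe set kept a positive difference for both toxins under every alternative that holds them. The replicate number as a block left 2 calls in each toxin contrast and 0 in METH against MPTP. Same-numbered arrays did not deviate together (correlations of -0.07 to 0.01, beside -0.035 to 0.055 for arrays of different number). No strong pairing by number was seen, but correlations over so few arrays cannot exclude a weak one. Signal over background is unknown, which limits the dim members: 5 of the 10 probe sets lie under the 40th percentile.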
